A study of Mus musculus with 48 samples.

Results

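Collagens are the triple-helical proteins that give connective tissue its strength. The collagen genes described here were the 42 genes whose annotated symbol reads Col, a number, a and a number, such as Col1a1, and each was read from its probe set of highest mean value. They held 82 of the 45037 probe sets on the array and were 42 of 18193 genes with a single symbol. NIH3T3 cells, an established line of mouse fibroblasts, were grown to confluence and given forskolin, an activator of adenylyl cyclase that brings the clocks of the cells in a dish into step. RNA was collected at each hour from hour 20 to hour 67 after forskolin. Each hour was hybridized to 1 Affymetrix mouse array, which gave 48 arrays and no replicate at any hour. How many cultures each RNA came from is not stated. The arrays were compared as 24 arrays of hours 44 to 67, the later day, against 24 arrays of hours 20 to 43, the earlier day, each of which holds 1 whole daily cycle. All cultures had received forskolin and no untreated culture was analysed here, so the comparison is of time in culture after the drug, not of the drug.

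A collagen molecule is made of 3 chains, alike or different, that are wound into a triple helix in the endoplasmic reticulum. Chains of types I, III, V and XI form the banded fibrils of skin, bone, tendon and cartilage. Type IV chains form the sheet of basement membranes, and type VI chains form beaded microfilaments around cells. FACIT collagens (fibril-associated collagens with interrupted triple helices) bind to the surface of fibrils. Fibroblasts are the main source of fibrillar collagen in most connective tissue.

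The cells carried fibroblast RNA. Of 12 fibroblast marker genes, 11 (all but Fap) lay above the median of all probe sets, whereas none of 8 endothelial, 8 epithelial or 8 skeletal muscle markers did. Among 8 chondrocyte markers, Sox9 and Sox5 lay above it, and among 5 measured osteoblast markers only Phex did. Fabp4 and Retn of 6 adipocyte markers and Cd68 and Cd14 of 8 macrophage markers lay above it. For the osteoblast list the log2 of the summed markers lay at 12.20 to 13.10 in hours 44 to 67 and at 11.21 to 12.37 in hours 20 to 43. For the adipocyte list it lay at 15.74 to 16.34 in hours 44 to 67 and at 14.95 to 15.94 in hours 20 to 43. It lay at 15.96 to 16.59 in the later hours and 15.97 to 16.78 in the earlier for the chondrocyte list, and at 12.29 to 13.07 in the later hours and 12.78 to 13.76 in the earlier for the macrophage list. Each sum was mostly that of 1 gene and does not describe its list. By mean log2 over 48 arrays Phex stood at 12.24 and the other osteoblast markers at 5.31 to 6.30. Fabp4 stood at 15.79 and the other adipocyte markers at 5.39 to 8.91. Sox9 (16.09) led the chondrocyte list, ahead of Sox5 (12.06), and Cd14 (12.59) the macrophage list, ahead of Cd68 (10.42). The part of these cell types in the results below was not tested. Above the median means a mean log2 value over 48 arrays above 6.67, the median of the means of all probe sets. All values are log2 of the deposited intensity, a brightness without a fixed unit, so that a difference of 1 is a doubling. The number of arrays limits their precision.

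By this measure 20 collagen genes lay above the median and 22 below it. Of the 11 fibrillar genes, 8 lay above it (Col1a1, Col1a2, Col3a1, Col5a1, Col5a2, Col5a3, Col11a1 and Col27a1) and 3 below (Col2a1, Col11a2 and Col24a1). Of the 6 basement membrane genes, Col4a1, Col4a2, Col4a5 and Col4a6 lay above it. The 9 FACIT genes had 4 above it (Col12a1, Col16a1, Col20a1 and Col22a1), the 5 beaded filament genes had 3 (Col6a1, Col6a2 and Col6a3) and the 3 network-forming genes had 1 (Col8a1). None of the 4 transmembrane genes, the 2 multiplexin genes, the anchoring fibril gene Col7a1 and the unclassed Col26a1 did. Col2a1 and the 3 type IX genes, chains of cartilage, were among those below. The split was clear for most genes, since the means of the genes below the median ended at 5.79 and those above began at 6.77, with Col5a3 (6.77) and Col20a1 (6.95) just over the limit.

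The 3 genes with the largest differences between the days, and Col3a1 as a fibrillar gene that was higher on the later day, are shown with the bases before their start sites. Each run gives the 250 bases before the annotated start on the gene's strand, from RefSeq on GRCm38.p6, at chr3:114030290-114030539 (+) for Col11a1, chr4:130047590-130047839 (+) for Col16a1, chr16:57754738-57754987 (-) for Col8a1 and chr1:45311288-45311537 (+) for Col3a1. Capitals mark the CCAAT box (CCAAT, or ATTGG on the other strand), the GC box (GGGCGG or CCGCCC) and the TATA box (TATAAA or TTTATA).
Col11a1: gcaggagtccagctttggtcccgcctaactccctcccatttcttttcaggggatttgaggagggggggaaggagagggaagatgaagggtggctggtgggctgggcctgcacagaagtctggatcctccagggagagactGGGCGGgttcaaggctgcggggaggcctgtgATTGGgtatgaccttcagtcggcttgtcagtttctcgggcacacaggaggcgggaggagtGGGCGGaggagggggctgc
Col3a1: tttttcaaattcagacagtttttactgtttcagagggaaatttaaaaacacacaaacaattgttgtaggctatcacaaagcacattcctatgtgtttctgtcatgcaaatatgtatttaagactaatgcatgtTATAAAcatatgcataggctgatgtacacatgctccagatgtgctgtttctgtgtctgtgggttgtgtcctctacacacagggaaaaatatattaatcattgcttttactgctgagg
Col16a1: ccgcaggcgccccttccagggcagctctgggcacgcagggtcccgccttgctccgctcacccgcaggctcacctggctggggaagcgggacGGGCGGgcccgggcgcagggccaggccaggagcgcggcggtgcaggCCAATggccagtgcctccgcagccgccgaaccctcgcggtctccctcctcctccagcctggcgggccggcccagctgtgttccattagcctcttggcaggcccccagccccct
Col8a1: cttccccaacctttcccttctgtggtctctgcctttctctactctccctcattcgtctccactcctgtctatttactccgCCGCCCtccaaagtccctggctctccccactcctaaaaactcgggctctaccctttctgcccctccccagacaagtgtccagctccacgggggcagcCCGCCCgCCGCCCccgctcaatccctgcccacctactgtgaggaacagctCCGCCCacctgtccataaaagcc

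The Col11a1 window held 2 GC boxes and 1 CCAAT box, that of Col16a1 1 of each, that of Col8a1 4 GC boxes, and that of Col3a1 a TATA box and neither of the others. Base composition differed as well, at 62.4% G and C for Col11a1, 75.6% for Col16a1, 60.8% for Col8a1 and 35.2% for Col3a1. RefSeq windows were matched for 33 of the 42 genes, with 36 windows in all. A GC box was found in 21 of the 36 windows (58.3%), against 32.7% of 32851 windows of all genes. The CCAAT box was found in 36.1% of the collagen windows against 33.8% of all, and the TATA box in 13.9% against 12.4%. The E-box CACGTG, which the clock's activators bind, was in none of the collagen windows and in 6.02% of all. These shares were not compared by a test, and 36 windows are few for a motif this rare. Both strands were searched, no match overlapped another in the 4 windows shown, and a match says only that the letters are there.

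The comparison of the days asked which collagen genes differed between the days, and 13 of the 20 above the median did by a test that takes the hours as independent. With 6 h spans as a random block (estimated correlation 0.279) 5 of these calls were kept, and the other 8 had adjusted p from 0.0598 to 0.456. On the later day 5 genes, all fibrillar, were higher (Col11a1, Col5a2, Col3a1, Col1a1 and Col1a2). Lower were 8 genes, of which 1 was fibrillar (Col5a1, by its brightest probe set only), 2 of basement membranes (Col4a1 and Col4a2), 2 FACIT (Col16a1 and Col20a1), 2 of beaded filaments (Col6a1 and Col6a2) and 1 network-forming (Col8a1). The differences ran from 1.00 for Col11a1 to -0.65 for Col16a1 on the log2 scale. By limma's moderated test of the window with a 24 h cosine in the model and Benjamini-Hochberg adjustment over all probe sets, 12.6% of all 45037 probe sets were higher and 13.8% lower on the later day. Among the 10366 genes whose brightest probe set lay above the median, 25.7% were higher and 25.1% lower. The 5 of 20 higher collagen genes were near the share of comparable genes. The 8 of 20 lower were above it, but this count holds Col5a1 and came to 2 with the random block and 0 with means of 6 h spans. Shares of comparable genes with these settings are not given, here or below, so such counts cannot be set against 25.1%. The median size of the difference was 0.16 over the 20 genes and 0.11 over the comparable genes. None of the 22 collagen genes below the median passed in either direction, and their median difference was -0.0051.

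**Figure D1:**
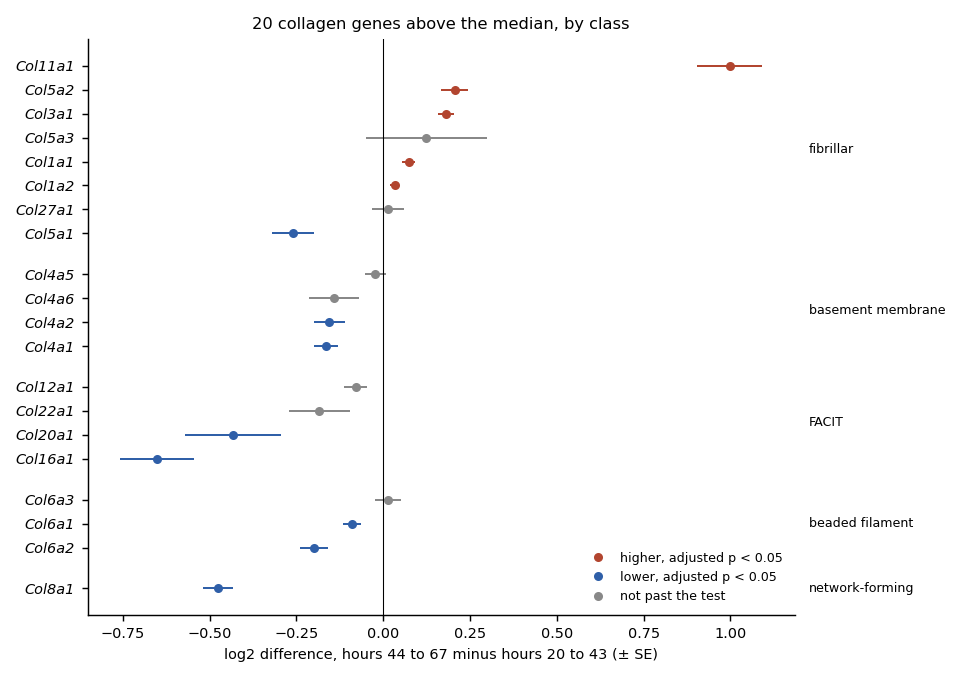
Difference in log2 intensity between hours 44 to 67 and hours 20 to 43 (horizontal axis, with its standard error) for the 20 collagen genes above the median, grouped by class. Red points are higher and blue points lower on the later day past limma's test, and grey points did not pass. Red points are found among fibrillar genes, from Col1a2 (0.033) to Col11a1 (1.00).

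Col11a1 encodes the α1 chain of type XI collagen, a minor fibrillar collagen best known from cartilage. Its lowest, median and highest values were 11.67, 12.42 and 12.89 in hours 44 to 67, against 10.46, 11.41 and 12.17 in hours 20 to 43. The days overlapped, but the later array was the higher one in 23 of 24 pairs of hours set 24 h apart. The difference was 1.00 ± 0.09 (SE, 24 arrays a day) on the log2 scale, with an adjusted p of 5.48e-12. Medians of successive 12 h spans were 11.15, 11.51, 12.25 and 12.56, so each span lay above the one before it. A second probe set of the gene differed by 1.14 and was higher in 24 of 24 pairs.

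Col3a1 and Col5a2 encode the chain of type III collagen and the α2 chain of type V, which starts fibrils of types I and III. They are neighbours on chromosome 1. Col3a1 had 18.33, 18.47 and 18.60 in hours 44 to 67 (lowest, median and highest), against 18.10, 18.26 and 18.46 in hours 20 to 43, a difference of 0.18 ± 0.02 (adjusted p = 1.05e-08), and its second, dimmer probe set differed by 0.36. Col5a2 had 17.04, 17.17 and 17.47 against 16.75, 16.93 and 17.35 in the earlier hours, a difference of 0.21 ± 0.04 (adjusted p = 3.98e-05). For both genes the days overlapped, with the later array higher in 20 and 19 of 24 pairs.

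Type I collagen, the main protein of most fibrils, is a trimer of Col1a1 and Col1a2 chains. The brightest probe sets of both genes changed little. Col1a1 had 18.30, 18.40 and 18.56 in hours 44 to 67, against 18.23, 18.31 and 18.48 in hours 20 to 43, with a difference of 0.073 ± 0.020 (adjusted p = 0.00358). Col1a2 had 18.55, 18.62 and 18.72 in the later hours, against 18.53, 18.59 and 18.68 in the earlier, with a difference of 0.033 ± 0.012 (adjusted p = 0.0403). The days overlapped over most of their range for both. For Col1a2 a second probe set differed by 0.055 (adjusted p = 0.000545) and the dimmest by 0.16 (adjusted p = 0.104).

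**Figure D2:**
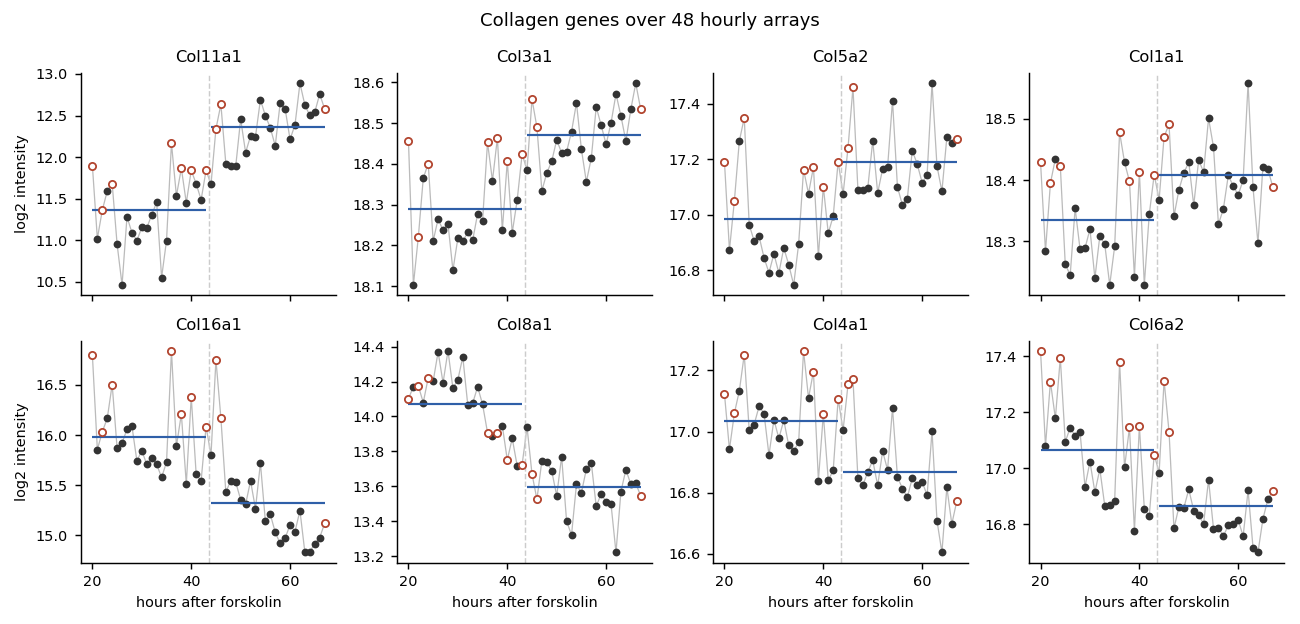
Log2 intensity (vertical axis) of 8 collagen genes against hours after forskolin (horizontal axis), 1 point per array. Blue lines are the means of hours 44 to 67 and of hours 20 to 43, the dashed line parts the days, and open red points are the 10 arrays with a β-actin 3′ to 5′ difference over 1.4. Col11a1 climbs and Col8a1 falls across the course, and most open points of Col16a1 and Col6a2 stand high.

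Col16a1, a FACIT-type collagen found in many connective tissues, had the largest fall. It had 14.83, 15.23 and 16.75 in hours 44 to 67, against 15.51, 15.88 and 16.84 in hours 20 to 43. The days overlapped through a few high arrays, and the later array was higher in 2 of 24 pairs. The difference was -0.65 ± 0.11 (adjusted p = 2.97e-06). Medians of successive 12 h spans were 15.98, 15.75, 15.54 and 15.01.

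Col8a1 encodes the α1 chain of type VIII collagen, a short-chain collagen of vessel walls and of the membrane behind the cornea. It had 13.22, 13.59 and 13.94 in hours 44 to 67, against 13.72, 14.09 and 14.38 in hours 20 to 43. The days overlapped only between 13.72 and 13.94, and the later array was lower in all 24 pairs. The difference was -0.48 ± 0.04, a ratio of 0.72 (adjusted p = 2.04e-12), and 2 dimmer probe sets gave -0.77 and -0.64. Medians of the 12 h spans were 14.20, 13.91, 13.64 and 13.56. For no collagen gene were the days fully apart, which was so for 0.309% of the comparable genes.

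The type IV and type VI genes fell by less. Col4a1 and Col4a2, whose chains make up the common network of basement membranes, had medians of 16.84 and 16.97 in hours 44 to 67, against 17.04 and 17.17 in hours 20 to 43. Their differences were -0.16 ± 0.04 (adjusted p = 0.000240) and -0.16 ± 0.05 (adjusted p = 0.00720), with the later array lower in 21 and 20 of 24 pairs. They lie head to head on chromosome 8, where their annotated transcripts overlap by 22 bases. Col4a5 and Col4a6, which lie next to each other on the X chromosome, differed by -0.023 ± 0.030 (adjusted p = 0.505) and -0.14 ± 0.07 (adjusted p = 0.112) and did not pass.

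Col6a1, Col6a2 and Col6a3 encode the chains of type VI collagen. Col6a2 had 16.70, 16.83 and 17.31 in hours 44 to 67, against 16.78, 17.06 and 17.42 in hours 20 to 43, a difference of -0.20 ± 0.04 (adjusted p = 0.000125). Its neighbour on chromosome 10, Col6a1, differed by -0.089 ± 0.027 (adjusted p = 0.00856). Col6a3, at a difference of 0.014 ± 0.037 (adjusted p = 0.746), did not pass. For all 3 the days overlapped.

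Col20a1, a FACIT gene near the median of all probe sets, had 6.32, 6.58 and 8.11 in hours 44 to 67, against 6.24, 6.75 and 9.21 in hours 20 to 43, a difference of -0.43 ± 0.14 (adjusted p = 0.0148). Col12a1, a FACIT collagen of tendon and other fibrous tissue, differed by -0.079 ± 0.033 (adjusted p = 0.0715) and Col22a1, known from muscle and tendon junctions, by -0.18 ± 0.09 (adjusted p = 0.0949). Col5a3 (0.12 ± 0.17) and Col27a1 (0.014 ± 0.047) did not pass either.

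Neighbouring hours are not independent replicates. The 5 calls kept with 6 h spans as a random block were Col11a1 (adjusted p = 5.59e-06), Col8a1 (4.68e-07), Col3a1 (0.000947), Col16a1 (0.00756) and Col5a2 (0.0373). Of the 8 lost, Col6a2 had the lowest adjusted p and Col1a2 the highest, and with means of 6 h spans only Col11a1 (0.0436) and Col3a1 (0.0432) passed.

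A line through all 48 hours called the same 13 genes and 3 more. By limma's test of the slope, 5 collagen genes rose and 11 fell, and 3 rose and 6 fell with 6 h spans as a random block (estimated correlation 0.265). In the test without the block 14.2% of all probe sets rose and 16.2% fell, and 26.9% and 29.5% of the comparable genes did. The genes that fell by slope and not between the days were Col12a1 (-0.095 ± 0.030 log2 per 24 h, adjusted p = 0.0127), Col22a1 (-0.23 ± 0.08, 0.0202) and Col4a6 (-0.17 ± 0.07, 0.0393), which had adjusted p of 0.147, 0.246 and 0.229 with the block. The slope call of Col4a6 was also lost without any 1 of 10 arrays (hours 20, 24, 36, 38, 40, 48, 53 and 63 to 65; adjusted p from 0.0513 to 0.0998), and that of Col1a2 without any 1 of 16. The steepest slopes were those of Col11a1 (0.92 ± 0.09 per 24 h), Col16a1 (-0.69 ± 0.09), Col20a1 (-0.54 ± 0.12) and Col8a1 (-0.45 ± 0.04). A smooth curve (a natural spline of 4 degrees of freedom) was called for 18 of the 20 genes, against 76.0% of all probe sets and 77.1% of the comparable genes. It was also called for most collagen genes below the median, with 37 of all 42 collagen genes called. Col10a1, below the median, was among them with an SD of 0.0043 over the arrays. Such a call therefore does not set the genes above the median apart and says little about the size of a change.

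Among the 13 genes past the window test, the probe sets of 1 gene mostly moved alike, with Col5a1 as the exception. Of these 13 genes, 9 had another probe set above the median, and in 8 of them all of these moved the same way. Of 12 such probe sets 10 moved the same way, and 9 of these passed the test. Outside the 13, a second probe set of Col27a1 above the median differed by -0.16 (adjusted p = 0.103), against 0.014 for the brightest. Its slope of -0.22 per 24 h passed limma's test (adjusted p = 0.0161). Col5a1 encodes the α1 chain of type V collagen, the partner of Col5a2. Its brightest probe set had 16.15, 16.29 and 16.86 in hours 44 to 67, against 16.33, 16.60 and 17.15 in hours 20 to 43, a difference of -0.26 ± 0.06 (adjusted p = 0.000591). The second differed by 0.064 ± 0.032 (adjusted p = 0.102) and the dimmest by 0.28 ± 0.10 (adjusted p = 0.0386), so the sign of the change depended on the probe set.

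The 3 probe sets also differed on the arrays with a high β-actin 3′ to 5′ difference, described below. There the brightest averaged 16.79 ± 0.28 (SD, n = 10), against 16.42 ± 0.18 on the other arrays (n = 38), while the dimmest averaged 13.87 ± 0.47 against 14.58 ± 0.18 on the others. On the other arrays alone the later day minus the earlier was -0.19, 0.055 and 0.15 for the 3 probe sets, so their signs were as before. The mean of the 3 gave 0.029 (adjusted p = 0.414), and no direction is given for Col5a1 as a gene.

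**Figure D3:**
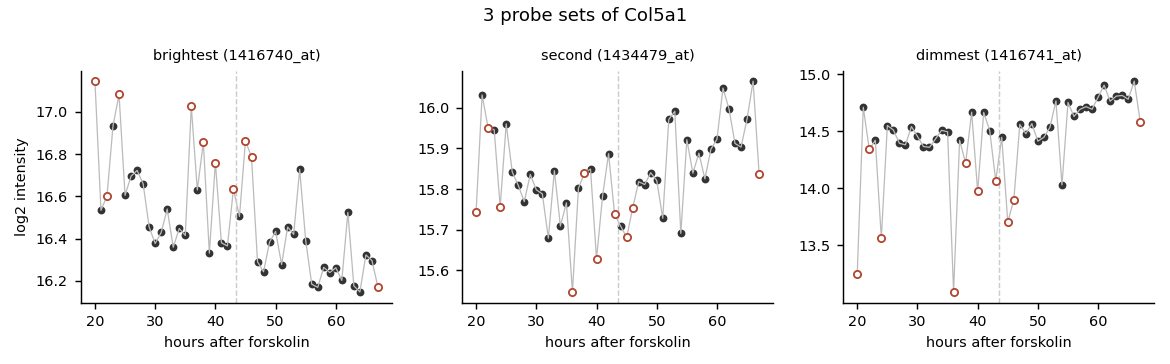
Log2 intensity (vertical axis) of the 3 probe sets of Col5a1 against hours after forskolin (horizontal axis), 1 point per array, with the dashed line between hours 43 and 44. Open red points are the 10 arrays with a β-actin 3′ to 5′ difference over 1.4, most of which stand high in the left panel and low in the right one.

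Chains of 1 trimer were set against each other on each array, since partner chains that keep step leave their log2 ratio unchanged. Of 8 pairs listed, 5 had both chains above the median. The ratio of Col5a1 to Col5a2 fell by 0.47 on the log2 scale (adjusted p = 5e-05, two-sided permutation test with 100000 resamples, adjusted over 5 pairs) and was lower in all 24 pairs of hours, with the limit on Col5a1 given above. Col6a1 over Col6a2 rose by 0.11 (adjusted p = 0.0001) and Col6a3 over Col6a1 by 0.10 (adjusted p = 5e-05). Col1a1 over Col1a2 differed by 0.040 (adjusted p = 0.00257), but by -0.017 (adjusted p = 0.729) when all probe sets of each gene were averaged. Col4a1 over Col4a2 changed by -0.0092 (adjusted p = 0.625), with SDs over arrays of 0.066 on the later day and 0.061 on the earlier. The smallest p that these resamples gave was 2e-05. With means of 6 h spans in an exact permutation test of 4 spans against 4, the first 4 of these pairs each reached an adjusted p of 0.0357 and Col4a1 over Col4a2 had 0.714. Before adjustment each of the 4 had 0.0286, the smallest p that this test can give, so it does not rank them.

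Read from the brightest probe set of each gene, partner chains varied together from hour to hour, and so did some chains that are not partners. After removal of the linear trend and the 24 h cosine, Pearson's r over 48 arrays was 0.93 for Col4a1 and Col4a2 (Spearman's rho 0.90), 0.89 for Col6a1 and Col6a2 (0.86), 0.89 for Col6a3 and Col6a1 (0.88), 0.84 for Col5a1 and Col5a2 (0.82) and 0.82 for Col1a1 and Col1a2 (0.83). Each had a permutation p of 1e-05, the smallest possible, also when adjusted over the 5 pairs. Without the 2 arrays farthest from the median r lay between 0.81 and 0.91, and over the 38 arrays without a high β-actin difference between 0.80 and 0.91. Pairs that are not partners reached like values, with r of 0.93 for Col16a1 and Col4a6 and 0.89 for Col3a1 and Col5a1. All 190 pairs of the 20 genes had a median r of 0.57, and all genes of an array share its RNA and its hybridization.

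Collagen values moved with a measure of RNA quality. In 10 arrays (hours 20, 22, 24, 36, 38, 40, 43, 45, 46 and 67; 3 of the later day and 7 of the earlier) the 3′ probe set of β-actin exceeded the 5′ one by more than 1.4, where the median was 1.13 on both days. On these arrays 19 of the 20 collagen genes, each read from its brightest probe set, were higher, by a median of 0.20. Of all 22518 probe sets above the median, 11548 were higher, with a median of 0.0075. These sets differ in kind, and the share among the brightest probe sets of comparable genes is not given. For Col5a1 the brightest probe set differed by 0.38 on these arrays, but the dimmer ones by -0.11 and -0.71. The counts therefore do not show that collagen genes differ from other genes. Col20a1 averaged 7.76 ± 0.78 on the 10 arrays and 6.74 ± 0.36 on the other 38 (SD). Col5a3 averaged 7.49 ± 0.90 against 6.58 ± 0.31 on the others, and Col16a1 16.29 ± 0.51 against 15.48 ± 0.38. Within the later day 19 of 20 genes were higher on such arrays and within the earlier day 18 of 20. Col4a5 (-0.0068) was the exception over all arrays, and Col8a1 was lower on them within each day.

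**Figure D4:**
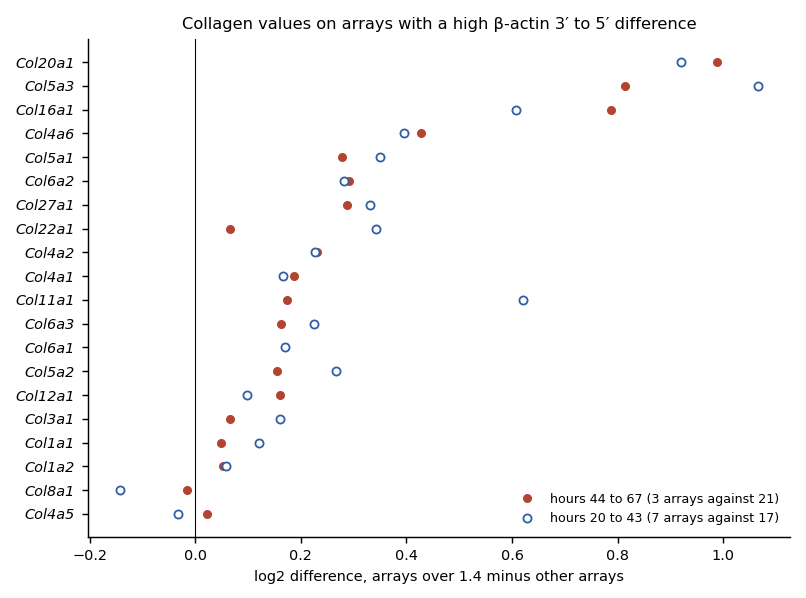
Difference in mean log2 intensity (horizontal axis) between arrays with a β-actin 3′ to 5′ difference over 1.4 and the other arrays, for each of 20 collagen genes. Filled red points are hours 44 to 67 (3 arrays against 21) and open blue points hours 20 to 43 (7 against 17). Nearly all points lie above 0, with Col20a1 and Col5a3 the highest on both days.

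Since the earlier day held more of these arrays, the days were compared again without them. All 13 calls were kept, with differences of 1.13 for Col11a1, -0.55 for Col16a1 and -0.50 for Col8a1, and Col5a3 then passed as well (0.33, adjusted p = 0.00395). The differences of Col4a2 (-0.11), Col6a1 (-0.053) and Col20a1 (-0.28) were smaller than with all arrays.

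The study sampled every hour to find rhythms, and 2 collagen genes passed a test for a daily one. With 6 h spans as a random block neither did (adjusted p = 0.998 for both), and without hours 20 to 25 none was called. In the test without the block a 24 h cosine was called for 2 of 42 by limma's F-test, both among the 20 above the median. It was called for 0.293% of all probe sets and, above the median, for 0.704% of the comparable genes. Col27a1, a fibrillar collagen of growing cartilage, passed with an amplitude of 0.18 ± 0.03, peaking at hour 42.97 (adjusted p = 0.0138), and Col20a1 had 0.43 ± 0.09 with a peak at hour 20.43 (adjusted p = 0.0396). Fisher's G-test at a Storey q under 0.05 called the same genes at 24 h, against 1.04% of all probe sets and 2.22% of the comparable genes, and none at 12 h or 8 h (0.0222% and 0.34% of all probe sets). On the 38 arrays under the β-actin limit the amplitudes were 0.11 (adjusted p = 0.269) and 0.25 (0.203), and neither gene passed. The call of Col20a1 was also lost without any 1 of 19 arrays. Amplitudes of Col1a1, Col1a2 and Col3a1 were 0.026, 0.024 and 0.035.

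The enzymes and chaperones that make, cut and bind collagen were followed next. Of 51 genes listed, 46 had a probe set with 1 symbol and 35 lay above the median. On the later day 10 of the 35 were higher, near the 25.7% of comparable genes, and 3 were lower, against 25.1%. With 6 h spans as a random block 5 were higher and 3 lower, and on the 38 arrays under the β-actin limit 6 were lower. No share of comparable genes is given for these settings. Among the 10 higher ones were 4 of the 5 cross-linking enzymes. Loxl3 (0.26 ± 0.05, adjusted p = 2.77e-05), Loxl1 (0.14 ± 0.04, 0.00308) and Lox (0.077 ± 0.015, 6.56e-05), which encode lysyl oxidases, were higher. So was Tgm2 (0.26 ± 0.06, 0.000523), which encodes a transglutaminase, whereas Loxl4 did not pass. These values are from the test without the block. Which of the genes named from this list kept their calls with the block is not given here. Both measured genes of propeptide removal above the median were higher, Bmp1, a protease that cuts the C-propeptide, by 0.21 ± 0.05 and its enhancer Pcolce by 0.086 ± 0.020.

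Of 11 genes of folding and export above the median, 3 were higher. Creb3l1, a transcription factor of the endoplasmic reticulum membrane that drives Col1a1 in bone, had 11.75, 12.55 and 12.92 in hours 44 to 67, against 10.43, 11.45 and 12.67 in hours 20 to 43, a difference of 1.04 ± 0.11. The prolyl isomerases Fkbp7 and Fkbp14 differed by 0.24 ± 0.03 and 0.22 ± 0.05. Serpinh1, the collagen chaperone Hsp47, differed by 0.043 ± 0.018 (adjusted p = 0.0691). A 24 h cosine was called for 2 genes of the list, Bmp1 with an amplitude of 0.18 (adjusted p = 0.0172) and Serpinh1 with 0.066 (adjusted p = 0.0417), and these 2 calls were not tested under other settings.

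Of 12 hydroxylase and glycosyltransferase genes above the median none was higher and 2 were lower. P4ha3, a catalytic subunit of prolyl 4-hydroxylase, had 13.11, 13.37 and 14.21 in hours 44 to 67, against 13.75, 14.25 and 14.84 in hours 20 to 43, a difference of -0.85 ± 0.06, and was lower in all 24 pairs. Plod3, a lysyl hydroxylase, differed by -0.51 ± 0.10. The other prolyl and lysyl hydroxylases (P4ha1, P4ha2, Plod1 and Plod2 among them) did not pass. Among receptors Mrc2, which takes up collagen for breakdown, was higher by 0.41 ± 0.06 and Ddr1, a collagen-binding kinase, lower (-0.25 ± 0.05).

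**Figure D5:**
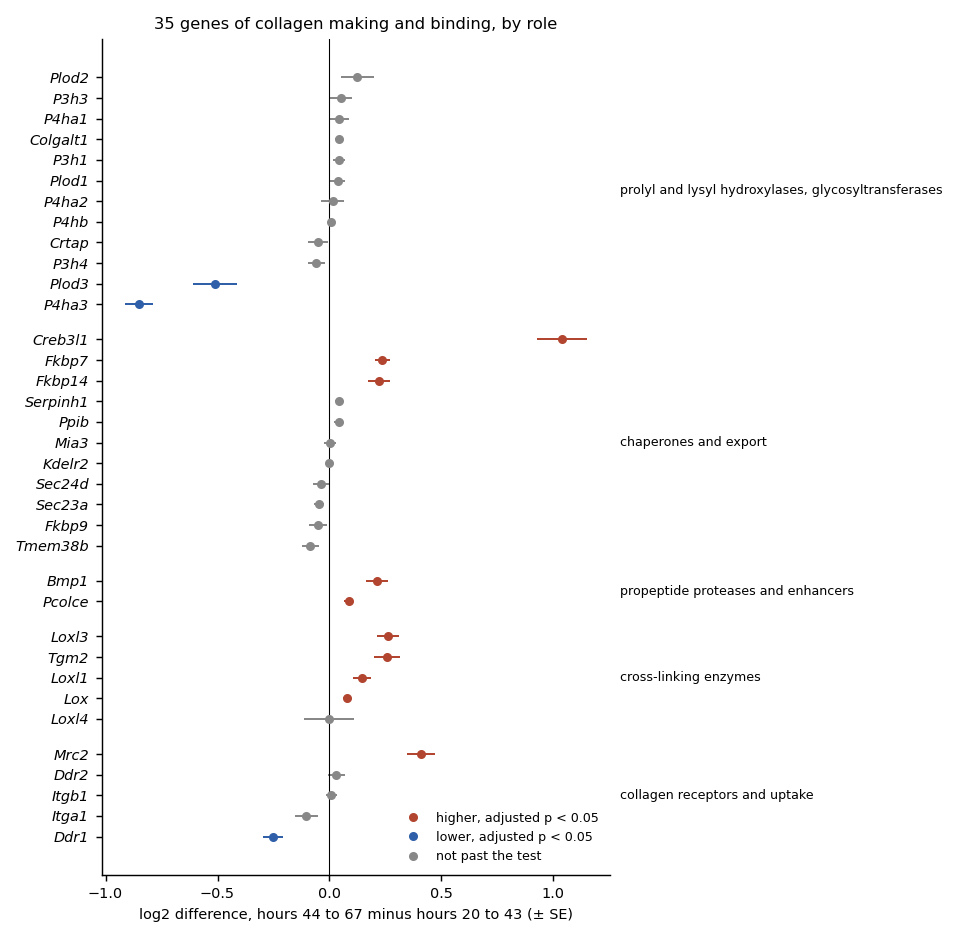
Difference in log2 intensity between hours 44 to 67 and hours 20 to 43 (horizontal axis, with its standard error) for 35 genes that make, cut, cross-link or bind collagen, grouped by role. Red points are higher and blue points lower past limma's test and grey points did not pass. Creb3l1 (1.04) and P4ha3 (-0.85) lie farthest from 0.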

How the data were processed

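The authors deposited 1 linear intensity per probe set and array. Their methods name GCRMA for expression values, and the processing notes name MAS5 only. The scale of the values is unknown, tool versions being not given in the sources used here, so levels were read within this series only, and set between probe sets only to choose each gene's brightest, to split genes at the median and to sum markers. The deposited values were taken to log2 with no added constant, and no probe set was filtered out. The 64 control probe sets were used for array quality only. Probe sets with several symbols (932) or none (9160) were tested but not named.

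The collagen genes, the 51 genes of collagen making and the cell type markers were chosen with earlier results of these data known. Values in full are given for genes past the window test, at most 12 by size, and for Col1a1, Col1a2, Col3a1, Col4a1 and Col4a2. limma 3.58.1 in R 4.3.3 fitted the window or hour with 24 h cosine and sine terms to all 48 arrays and 45037 probe sets. These fits were tested on simulated data with independent noise on each array. Correlation between neighbouring hours was not simulated, so that test does not give the share of false calls under it. Calls used an adjusted p or q under 0.05. The labels give no replicate numbers, and hours were paired only as 24 h apart. The p-values measure the spread between hourly samples of 1 time course. Neither RNA per cell nor cell number was measured. COSOPT, the other rhythm test of the study, was not run. Other software was statmod 1.5.0, scipy 1.17.1 and numpy 2.4.6 in Python 3.11.15.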

Additional observations from a re-analysis of the deposited data

How the results depend on the processing

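Normalization, the added constant, the β-actin covariate and leaving out the arrays of high β-actin difference kept all 13 window calls. Leaving out hours 20 to 25 lost Col1a2, Col20a1 and Col6a1. The call of Col1a2 was also lost with a term for hours 52 to 55, with the hour of the cycle as a block, and with probe sets below the median left out. The arrays of hours 52 to 55, all of the later day, averaged 15.57 to 15.71 in log2 on the BioB control probe sets. The other arrays lay at 14.55 to 15.21 on them. With 6 h spans as a random block the window test called 3 collagen genes higher and 2 lower, the slope 3 and 6, and the cosine 0, and the collagen-making list had 5 higher by window and 6 by slope. With means of 6 h spans these counts were 2 and 0 by window, 2 and 5 by slope, and for the list 1 and 1 by window and 4 higher by slope. The term for hours 52 to 55 gave 3 collagen genes rising by slope and 5 list genes falling. The list had 6 lower by window and 6 by slope with the β-actin covariate, and 6 and 6 without the arrays of high difference. The cosine called 1 gene after quantile normalization, with all probe sets averaged and with the covariate, and 0 without the arrays of high difference or hours 20 to 25, and the G-test called 1 at 24 h after removal of the trend. Averaging all probe sets turned Col5a1 to 0.029 between the days and 0.036 by slope, Col27a1 to -0.075, Col1a1 over Col1a2 to -0.017 (adjusted p = 0.729) and Col4a1 over Col4a2 to 0.0059. Uncalled genes changed sign as follows. Between the days, the term for hours 52 to 55 gave Col27a1 -0.0044 and Col6a3 -0.016. By slope, Col27a1 was 0.033 with the covariate, 0.065 without the arrays of high difference, 0.033 without hours 20 to 25 and 0.0046 with 6 h means. Col6a3 was -0.012 after quantile normalization, -0.032 with the term, -0.020 without hours 20 to 25 and -0.016 with the random block, and Col5a3 was -0.049 with the term and -0.10 without hours 20 to 25. The causes were not tested. Leaving out each array in turn gave 4 to 5 collagen genes higher and 8 to 9 lower by window, 4 to 5 and 10 to 11 by slope, and 1 to 2 by cosine. For the list it gave 10 to 12 and 3 to 5 by window (5 without hour 36) and 11 to 13 and 3 to 4 by slope. The window call of Col1a2 (0.028 to 0.036) was lost without any 1 of hours 21, 25, 26, 29, 31 to 35, 39, 41, 46, 52 to 55, 62 or 65, and the cosine call of Col20a1 (0.38 to 0.46) without any 1 of hours 20, 22, 23, 29 to 35, 40, 45, 46, 56, 59 or 64 to 67. Slopes that changed sign ranged from -0.031 to 0.031 for Col27a1, from -0.023 to 0.16 for Col5a3 and from -0.014 to 0.024 for Col6a3. The exact test of chain ratios over 6 h means was chosen after seeing the data. Each hour has 1 array, and its precision comes only from its neighbours.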
